A study of Mus musculus with 12 samples.

Results

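In the mouse lung epithelial line MLE-12, 50 genes were listed with 2 promoter readouts of the microRNA Mirlet7d. Chromatin captured with probes against Mirlet7d gave a promoter peak, and RNA captured with Mirlet7d held a promoter-associated non-coding RNA (ncRNA) under the same gene name. Matching by name does not ensure that both lie at 1 promoter. The peak annotation names another gene at 5 of the 50, and the ncRNA carries the accession of another gene at 3. The genes were chosen by these 2 readouts, namely a ChIRP-seq peak that the deposited annotation places in the class promoter-TSS (TSS, transcription start site) and an entry in the deposited list of promoter-associated ncRNAs enriched in the pull-down. They are 50 of the 4535 genes nearest to a peak or listed with a promoter ncRNA. Of 51 genes on both lists, Mir5119 was set aside because genes with symbols in Slc, Zfp, Mir, Rpl, Rps, Mrpl and Mrps were left out. Among 1480 genes with a promoter ncRNA, counted under the same exclusion, 3.38% had a promoter peak, and among 377 genes with a promoter peak 13.3% had a promoter ncRNA. Both percentages describe the choice, and no test was made on the readouts that chose the genes.

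MLE-12 is an immortalised line derived from a lung tumour of a mouse that carried a viral large T antigen under the surfactant protein C promoter. In the pull-down, cells received 25 nM of biotinylated Mirlet7d, and 48 h later its RNA partners were collected on streptavidin beads. The input RNA library belongs to the same labelled treatment, so enrichment was measured within cells that all carried the added microRNA. For ChIRP-seq, 150 pmol of biotinylated probes against mature Mirlet7d were added to chromatin, and that sample carries a Mirlet7d gain-of-function tag. Both assays have 1 library per group, among 12 libraries in the series, and 5 processed tables were used. There is therefore no replicate error, and enrichment cannot be told apart from capture without Mirlet7d, since no control capture was analysed here. All intervals on folds are 95% exact intervals of counting error between 2 libraries, and PCR copies were not separable.

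The let-7 microRNAs are a conserved family best known for binding target mRNAs in the cytoplasm through the seed at their 5′ end. Many promoters transcribe ncRNAs next to, or against, their gene, and such RNAs are known to bind microRNAs and chromatin proteins. The series title names MiCEE, a complex of ncRNA and proteins around Mirlet7d. The mature sequences are shown because both assays were built on this microRNA, and the 5p seed was searched for in the promoters. They are RefSeq entries of GRCm38.p6 on the minus strand, at chr13:48536078-48536099 for the 5p arm and chr13:48536024-48536045 for the 3p arm, and capitals mark bases 2 to 8, the seed.
mmu-let-7d-5p: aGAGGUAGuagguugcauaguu
mmu-let-7d-3p: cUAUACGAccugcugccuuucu
The labels do not say which arm was used.

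The 50 genes had 64 listed promoter ncRNAs. One ncRNA was listed for 39 genes, 2 ncRNAs for 8 genes and 3 ncRNAs for 3 genes (Eaf2, Klf1 and Nfkb2). Levels are RPKM, a read number scaled to length and library size, where the length is the genomic span with introns. Taking the ncRNA of highest fold for each gene, the level in the pull-down ran from 0.275 to 57.5 RPKM with a median of 6.28, against 0.022 to 15.0 RPKM with a median of 1.01 in the input. For the 1430 genes with a promoter ncRNA and no promoter peak, the medians were 3.95 RPKM in the pull-down and 0.828 RPKM in the input. The median of the 50 genes was thus higher in both libraries. Inputs deposited as exactly 1 RPKM, at 12 of the 50 genes, enter the input median of 1.01, so no difference in input level is read from it.

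The highest fold per gene ran from 2.53 to 54.1, and the median was 4.38. The median was 5.50 in the 1430 genes with a promoter ncRNA only and 5.39 in all 1624 promoter ncRNA genes, so the genes with a peak had the lower median. A fold above 10 was reached by 10 of the 50 genes (20%), against 26.4% of the 1624. For 12 of the 50 genes (24%) the input of this ncRNA was exactly 1 RPKM, against 21.6% of the 1624. Of the 1563 inputs of exactly 1 among all ncRNAs, 29.8% fell on whole reads, no more often than the tolerance allows. Of the other ncRNA inputs with enough decimals, 100% did. A value of exactly 1 thus did not behave as a read count, and these inputs and their folds carry no interval. How it arose is not stated, and in these entries the listed fold is the same number as the pull-down RPKM. Without them the median fold was 4.02 over 38 genes. The folds of Brd9 and Nktr, among the 10 above 10, are of this kind, and an enrichment cannot be told apart from a pull-down level there. At the lower end, Sf3b2 and Hmgb2 lay just inside the list limit with 2.53-fold.

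**Figure D1:**
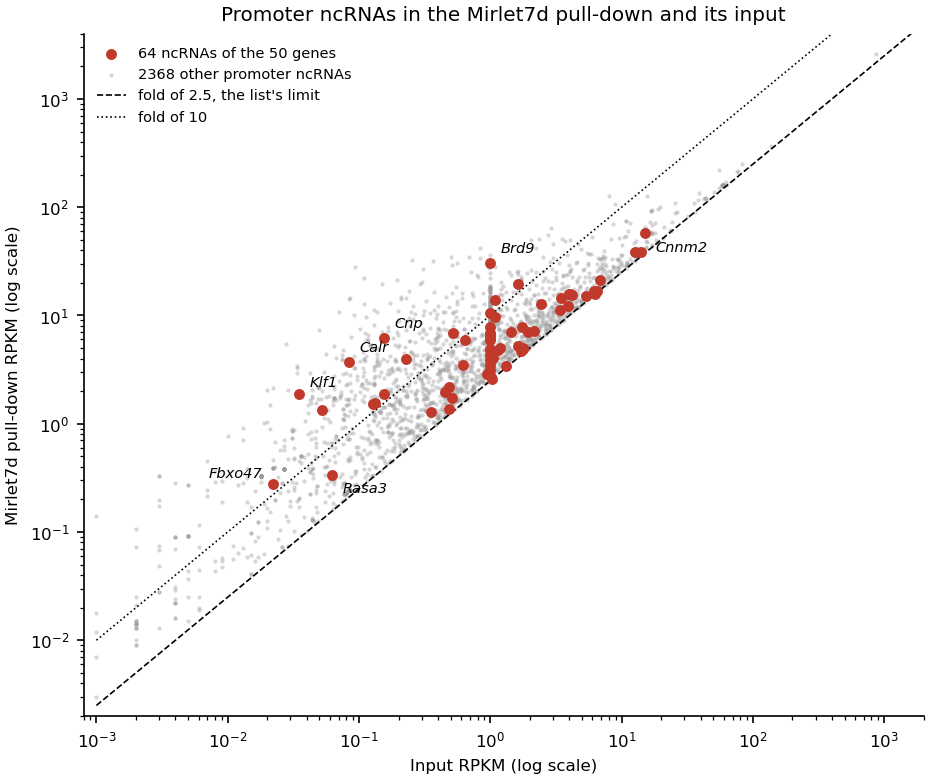
Pull-down RPKM (vertical, log scale) against input RPKM (horizontal, log scale) for the 64 promoter ncRNAs of the 50 genes (red) and the 2368 other promoter ncRNAs (grey); dashed and dotted lines mark folds of 2.5 and 10. Most red points lie between the lines, and the column of points at 1 RPKM is made of inputs deposited as exactly 1.

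Of the 64 ncRNAs, 46 gave whole reads in both libraries. The interval of the fold lay above 1 for 44 of them and above 2.5 for 21. The list admits only folds from 2.5 upward, so these counts partly follow from the selection. They describe read numbers, and no enrichment is read from them. The exceptions at 1 were the second ncRNA of Calr, with 18 reads in the pull-down and 1 read in the input, and the ncRNA of Rasa3, with 17 and 2 reads. Reads entered the intervals as pairs, rounded up. These 2 ncRNAs therefore share the interval 0.805 to 255, although their folds are 11.62 and 5.47. With 1 input read, as at Calr, the interval belongs to a lower fold than the one printed. Another 14 ncRNAs had an input of exactly 1 RPKM, and 4 with long spans had too few decimals. ncRNAs of 1 gene often overlap and share reads, so they are not separate measurements.

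**Figure D2:**
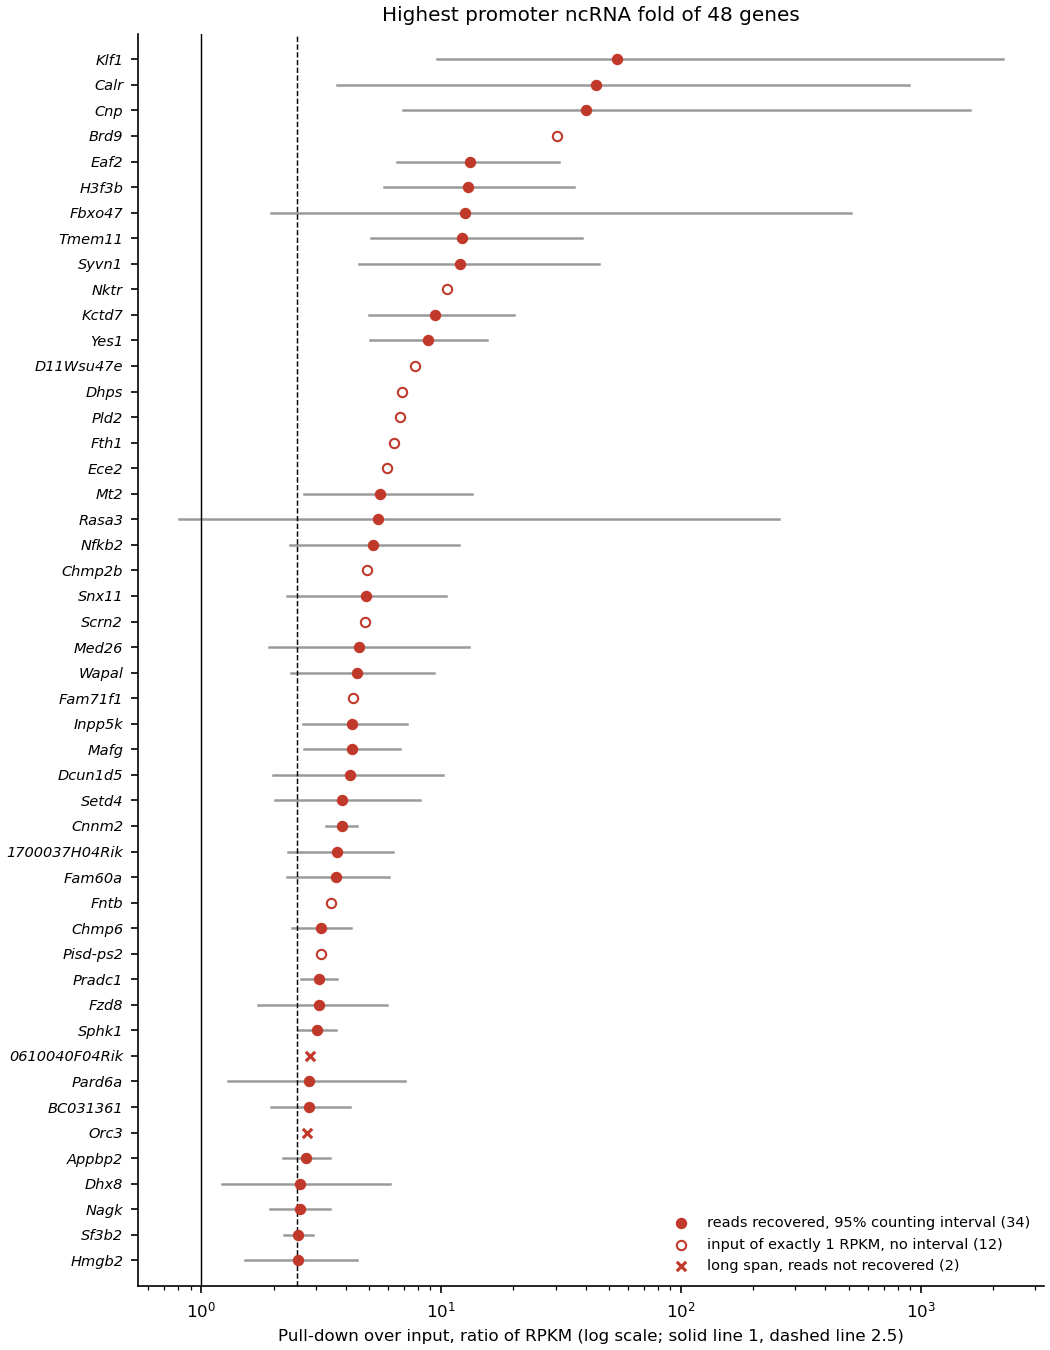
Highest promoter ncRNA fold of 48 of the 50 genes (horizontal, log scale), with a 95% counting interval where reads could be recovered (34 genes); open circles are inputs of exactly 1 RPKM (12 genes) and crosses are spans whose reads were not recovered (2 genes). The intervals of Klf1, Calr, Cnp, Fbxo47 and Rasa3, which rest on 1 or 2 input reads, are the widest on this axis, and that of Rasa3 includes 1.

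Promoter peaks of the 50 genes had deposited scores from 30.09 at Cnp to 130.23 at Nfkb2, with a median of 36.2. This score serves to rank peaks within the list, whose lowest value was 30.0. The other 355 promoter peaks had a median of 36.1 and reached 162. Scores of at least 40 were found at 21 of the 50 genes (42%), against 37.3% of all 405 promoter peaks. Peak widths were likewise close, with medians of 704 bases in the 50 genes and 700 bases in the other promoter peaks. Across the 50 genes, score and fold had a Spearman rho of -0.195, a description over points from the same 2 assays. Calr was the one gene among the 10 highest scores and also among the 10 highest folds.

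**Figure D3:**
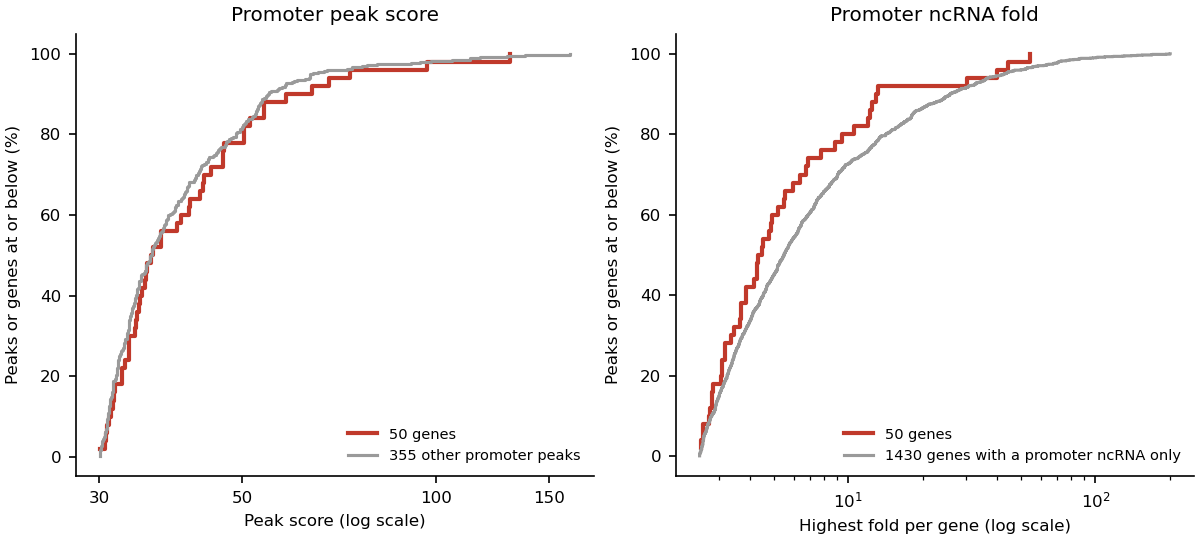
Cumulative share of promoter peaks by score (left, log scale) and of genes by highest promoter ncRNA fold (right, log scale), for the 50 genes (red) beside 355 other promoter peaks and 1430 genes with a promoter ncRNA only (grey). The score curves run close together (medians 36.2 and 36.1), and the red fold curve lies left of the grey one (medians 4.38 and 5.50).

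The peak centre lay upstream of the TSS at 36 of the 50 genes (72%) and at 283 of 355 other promoter peaks (79.7%), and the median position was -224 bases in both. The class promoter-TSS chose these peaks, and peaks 142 and 209 bases after the TSS, at Immt and Gins2, fell in other classes. The upstream placement cannot be separated from that class. The ncRNA span touched the gene's own promoter peak at 33 of the 50 genes (66%). Any listed ncRNA was touched by 8 of the 355 other promoter peaks (2.25%), and by 10.1% of all 405, which include the 50. The choice of genes puts a promoter peak and a promoter ncRNA under 1 gene name, so nothing further is read from that difference. Touching was not required by the choice, however, and 17 genes showed a gap of 113 to 4520 bases with a median of 671. At 18 genes the ncRNA covered at least 50% of the peak. At 8 genes, namely 1700037H04Rik, Appbp2, Cnnm2, Eaf2, Fam60a, Mt2, Orc3 and Tmem11, 1 ncRNA covered the whole peak.

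Relative to the gene's direction, 57 ncRNAs of 43 genes could be placed. Of these, 19 lay upstream of the TSS, 13 crossed it and 25 lay downstream. At 13 genes the near edge of an ncRNA span lay 0 to 50 bases after the TSS, and without strand it may be either end of the ncRNA. These were 0610040F04Rik, BC031361, Eaf2, Fam71f1, Kctd7, Nfkb2, Orc3, Pard6a, Pradc1, Setd4, Sf3b2, Snx11 and Yes1. The tables give no strand for the ncRNAs, so reads of such a span cannot be told apart from reads of the gene's own transcript. The ncRNA of Cnnm2 crossed the TSS, those of Mafg and Calr lay upstream of it and that of H3f3b lay downstream.

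**Figure D4:**
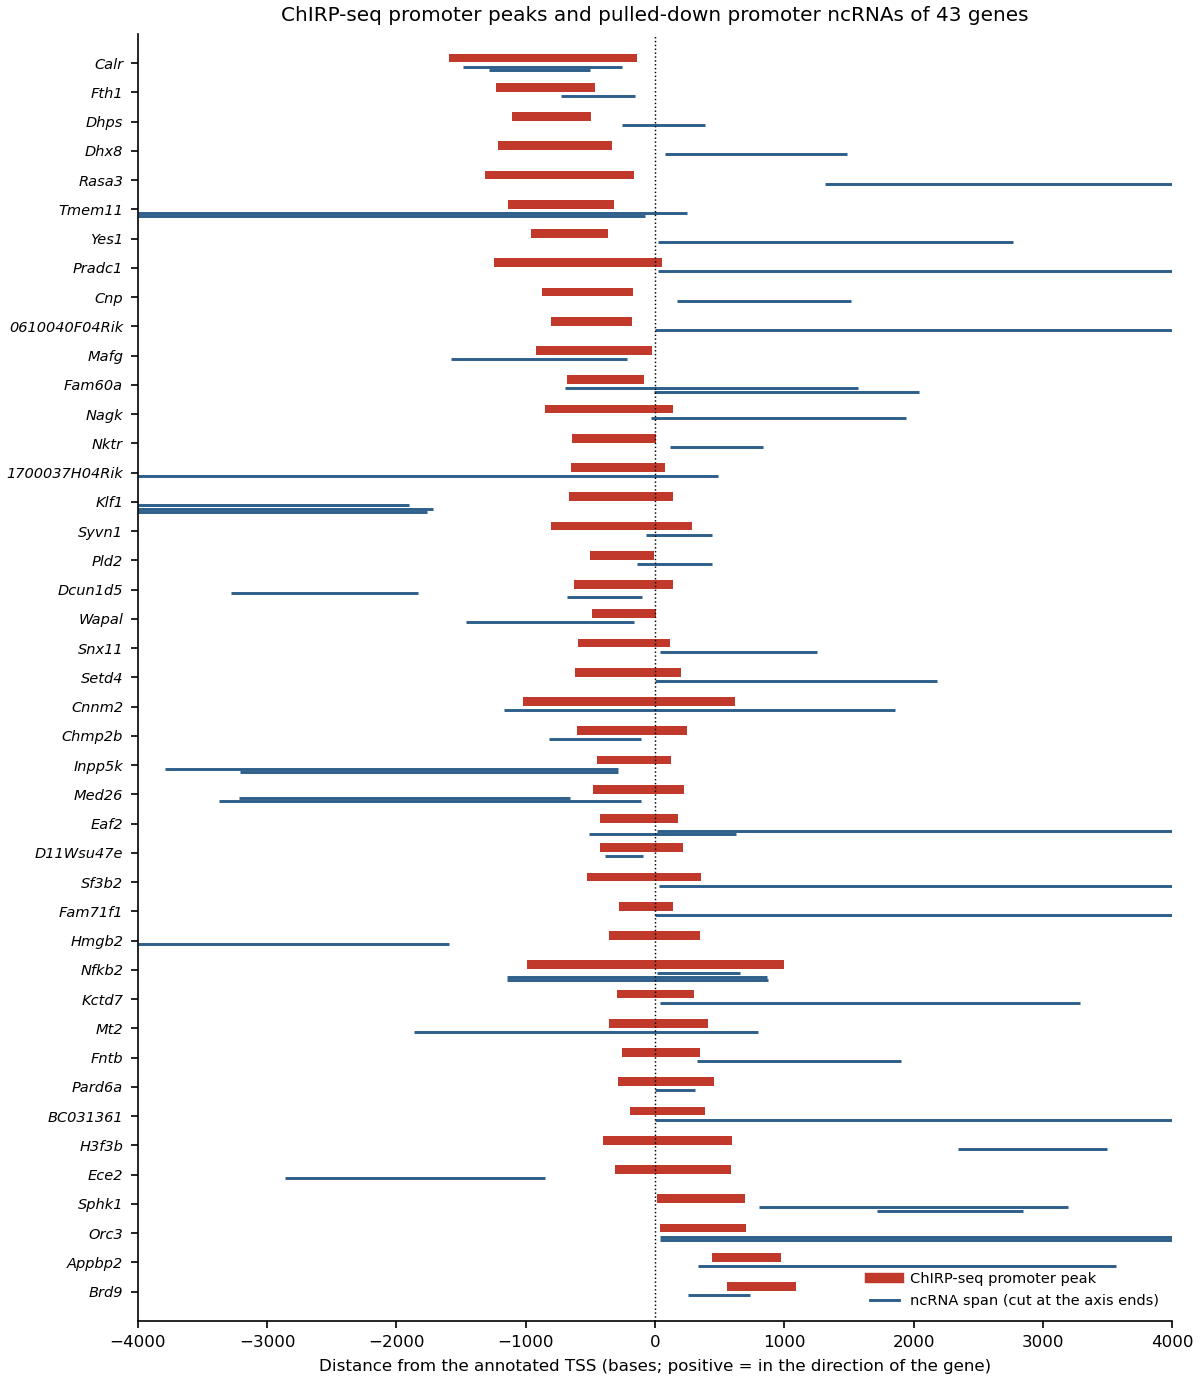
Promoter peaks (red bars) and ncRNA spans (blue lines, cut at 4 kb) around the annotated TSS (dotted line) of the 43 genes that could be placed, in order of peak position; the horizontal axis is the distance from the TSS in bases. Peaks crowd just upstream of the TSS, a placement that cannot be separated from the class promoter-TSS that chose them. The ncRNAs reach to both sides, and 1 ncRNA of Eaf2 lies beyond the axis.

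Transcription and chromatin was the role of 12 genes, with a median score of 35.2 and a median highest fold of 4.49. Peak and ncRNA touched at 9 of them. Nfkb2, which encodes an NF-kappaB subunit of the non-canonical pathway, had the highest and widest promoter peak of the 50. This peak spanned 1988 bases at chr19:46378237-46380224 (mm9, as all peak and ncRNA positions), with its centre 3 bases from the TSS. Its 3 ncRNAs are nested. The shortest lay 16 to 654 bases after the TSS at 12.7 RPKM in the pull-down, against 2.43 RPKM in the input (5.21-fold, interval 2.35 to 11.9). The 2 longer ones crossed the TSS, covered 93.2% and 93.8% of the peak, and held the same 475 reads in the pull-down and 78 reads in the input (3.93-fold, 2.80 to 5.68). The 250 bases before the first of 3 RefSeq starts of Nfkb2 (GRCm38.p6, chr19:46304487-46304736, plus strand) are shown as the promoter with the highest score, with its CCAAT box in capitals.
Nfkb2: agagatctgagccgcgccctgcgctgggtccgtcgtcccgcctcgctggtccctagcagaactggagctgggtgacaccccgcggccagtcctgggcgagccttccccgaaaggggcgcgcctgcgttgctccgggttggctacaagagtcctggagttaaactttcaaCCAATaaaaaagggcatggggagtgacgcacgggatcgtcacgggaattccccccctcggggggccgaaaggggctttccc

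Mafg, a small Maf factor that pairs with CNC-family activators and Bach repressors, had the peak with the second highest score, 96.91, at chr11:120494887-120495785. Its centre lay 475 bases upstream of the TSS. The ncRNA ran from 1578 to 221 bases upstream and covered 78.3% of the peak, at 14.6 RPKM in the pull-down against 3.43 RPKM in the input (4.25-fold, 2.67 to 6.76). Unlike Nfkb2, Mafg had further peaks, with a score of 73.32 in an intron 1386 bases after the TSS and 30.07 in a 3′ UTR. The latter lay at -2908 bases, upstream of the Mafg TSS. Its upstream window (GRCm38.p6, chr11:120633548-120633797, minus strand) held none of the motifs searched and is shown for contrast with Nfkb2.
Mafg: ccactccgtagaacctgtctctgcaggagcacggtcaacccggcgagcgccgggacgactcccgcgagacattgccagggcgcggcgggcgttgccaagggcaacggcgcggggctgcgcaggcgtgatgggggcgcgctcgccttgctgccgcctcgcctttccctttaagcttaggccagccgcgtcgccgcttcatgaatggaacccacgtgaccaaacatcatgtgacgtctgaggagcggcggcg

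Klf1, the erythroid Krüppel-like factor, had the highest fold of all 50 genes. This ncRNA had 1.89 RPKM in the pull-down against 0.035 RPKM in the input (54.11-fold, 9.59 to 2192), with 170 and 2 reads. Another had 1.35 RPKM in the pull-down against 0.052 RPKM in the input (25.88-fold, 4.38 to 1045), also with 2 input reads. The longest of its 3 ncRNAs rested on more input, with 3.93 RPKM in the pull-down against 0.227 RPKM in the input (17.29-fold, 8.07 to 38.1). All 3 lay upstream of the TSS and ended at least 1053 bases short of the promoter peak, whose score was 31.28. A second peak of Klf1, called intergenic and scored 38.72, lay wholly inside the ncRNAs.

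H3f3b encodes the replacement variant of histone H3 that is deposited outside replication. Its promoter peak scored 46.87 with the centre 95 bases after the TSS, and a second peak followed in an exon (36.41). The ncRNA lay 2342 to 3490 bases after the TSS, 1749 bases from the promoter peak. It had 14.0 RPKM in the pull-down against 1.08 RPKM in the input (12.91-fold, 5.76 to 35.9). The upstream window (GRCm38.p6, chr11:116024505-116024754, minus strand) held 4 copies of CCAAT, capitalised here.
H3f3b: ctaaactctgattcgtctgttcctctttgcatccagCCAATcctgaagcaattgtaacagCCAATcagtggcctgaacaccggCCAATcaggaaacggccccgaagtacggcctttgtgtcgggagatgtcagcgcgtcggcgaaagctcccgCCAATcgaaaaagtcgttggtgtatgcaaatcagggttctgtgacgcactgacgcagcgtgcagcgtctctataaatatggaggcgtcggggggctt

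Brd9, a bromodomain subunit of chromatin remodelling complexes, had 30.3 RPKM in the pull-down against an input of exactly 1 RPKM (30.34-fold, without interval). Its peak scored 32.54, and the deposited annotation names the neighbouring Trip13 there. Eaf2, a partner of the ELL elongation factors, had a peak score of 33.32 and 3 ncRNAs. The one of highest fold had 6.85 RPKM in the pull-down against 0.521 RPKM in the input (13.15-fold, 6.52 to 31.0) and lay 43261 bases downstream of the TSS nearest the peak, so peak and fold belong to different parts of the gene. A shorter ncRNA across that TSS covered the whole peak, at 5.23 RPKM in the pull-down against 1.64 RPKM in the input (3.19-fold, 1.56 to 7.51). The longest had 1.96 RPKM in the pull-down against 0.454 RPKM in the input (4.31-fold). Setd4, a SET-domain methyltransferase, had a promoter score of 51.47 and 3 further intergenic peaks of 56.41, 43.68 and 38.04. Its ncRNA had its near edge at the TSS, with 4.05 RPKM in the pull-down against 1.05 RPKM in the input (3.87-fold, 2.03 to 8.13).

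Hmgb2, a DNA-bending protein, had its peak centre 7 bases upstream of the TSS with a score of 36.38. Its ncRNA, whose accession belongs to 2500002B13Rik, lay upstream of the TSS at 2.60 RPKM in the pull-down against 1.03 RPKM in the input (2.53-fold, 1.52 to 4.47). The remaining genes of the role had highest folds of 2.75 to 4.52. They were the Mediator subunit gene Med26 (4.52), the cohesin release factor Wapal (4.46), Fam60a (3.63) of the Sin3 deacetylase complex and Orc3 (2.75) of the origin recognition complex. At Orc3 the peak annotation names Rars2, whose start lies back to back with that of Orc3.

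RNA splicing and processing held 3 genes. Sf3b2, a subunit of the SF3B complex that recognises the branch point, had a peak score of 54.08 with the centre 86 bases upstream of the TSS (chr19:5295100-5295982). Its ncRNA spanned 8490 bases from 31 bases after the TSS, at 15.9 RPKM in the pull-down against 6.25 RPKM in the input. With 2014 and 513 reads, the fold of 2.53 had the narrow interval of 2.20 to 2.91. A second peak of Sf3b2, in an intron and scored 30.1, lay within this span. The upstream window of its first RefSeq start (GRCm38.p6, chr19:5295458-5295707, minus strand) is shown with its CCAAT box in capitals.
Sf3b2: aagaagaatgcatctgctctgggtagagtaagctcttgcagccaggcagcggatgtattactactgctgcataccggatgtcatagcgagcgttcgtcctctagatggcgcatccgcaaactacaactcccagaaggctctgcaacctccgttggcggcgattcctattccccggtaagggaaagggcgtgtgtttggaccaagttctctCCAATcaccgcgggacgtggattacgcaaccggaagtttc
Nktr, which encodes a cyclophilin-type protein, had a peak score of 31.06, and its ncRNA had 10.6 RPKM in the pull-down against an input of exactly 1 RPKM (10.57-fold), and Dhx8, a helicase that releases spliced mRNA, had 2.58-fold (1.22 to 6.10). Neither ncRNA touched its peak.

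Protein folding, modification and turnover held 12 genes, with a median score of 39.9 and a median highest fold of 5.37. Calr, the calcium-binding chaperone calreticulin of the endoplasmic reticulum (ER), had a peak of 1452 bases and a score of 64.22 at chr8:87370973-87372424, centred 868 bases upstream of the TSS, the most distant upstream centre of the 50. Both of its ncRNAs lay wholly within the peak and upstream of the TSS. The longer had 3.70 RPKM in the pull-down against 0.084 RPKM in the input (44.08-fold, 3.68 to 892), with 68 reads and 1 read. The shorter had 1.55 RPKM in the pull-down against 0.133 RPKM in the input (11.62-fold, 0.805 to 255). The interval of the longer one lay above 1, but it rests on 1 input read. The list limit had already selected this fold, so neither its direction nor its size is read from the interval. The upstream window of Calr (GRCm38.p6, chr8:84846932-84847181, minus strand) held CCAAT once on each strand, in capitals.
Calr: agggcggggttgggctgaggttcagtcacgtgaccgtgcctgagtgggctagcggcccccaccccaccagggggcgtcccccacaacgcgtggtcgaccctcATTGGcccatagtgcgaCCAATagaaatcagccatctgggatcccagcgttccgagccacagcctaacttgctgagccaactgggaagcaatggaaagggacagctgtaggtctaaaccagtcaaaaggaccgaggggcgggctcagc

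Syvn1, the ubiquitin ligase of ER-associated degradation, had 19.4 RPKM in the pull-down against 1.61 RPKM in the input (12.02-fold, 4.54 to 45.6) over a span that crossed the TSS. Its peak scored 43.43. Pradc1, a protein with a protease-associated domain, had a score of 68.31 and one of the most abundant ncRNAs, with 21.3 RPKM in the pull-down against 6.88 RPKM in the input (3.09-fold, 2.59 to 3.68). Its ncRNA lay downstream, with its near edge 26 bases after the TSS, and shared only 32 bases with the peak. Scrn2, a secernin, had a score of 58.39 but the widest gap, 4520 bases. Its ncRNA, whose accession belongs to Gm11532, had 4.79 RPKM in the pull-down against an input of exactly 1 RPKM (4.79-fold).

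Fbxo47, an F-box protein gene with a promoter peak score of 30.82, had the lowest pull-down level of the 50, with 0.275 RPKM in the pull-down against 0.022 RPKM in the input (12.5-fold, 1.95 to 510). It also had the most further peaks, 4, of which 1 (31.58, intergenic) lay inside the ncRNA. Appbp2, which encodes a protein that binds the amyloid precursor protein, had 17.0 RPKM in the pull-down against 6.21 RPKM in the input (2.73-fold, 2.19 to 3.45), and its peak, with a score of 32.48, is annotated to the antisense gene Appbp2os. Such promoters with 2 names recur among the 50.

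Kctd7, a BTB-domain protein, and Fntb, the beta subunit of farnesyltransferase, had peak centres 3 and 46 bases after the TSS, with scores of 40.16 and 33.39. The Kctd7 ncRNA had 5.99 RPKM in the pull-down against 0.638 RPKM in the input (9.39-fold, 4.98 to 20.1), and that of Fntb 3.46 RPKM in the pull-down against exactly 1 RPKM in the input. Dhps, the first enzyme of hypusine synthesis, had 6.89-fold with an input of exactly 1 RPKM. Dcun1d5, a cofactor of cullin neddylation, had a peak score of 44.71 and an ncRNA of 4.76 RPKM in the pull-down against 1.15 RPKM in the input (4.16-fold, 1.98 to 10.2). Its second ncRNA, on the peak, had 3.90 RPKM in the pull-down against an input of exactly 1 RPKM. Ece2, an endothelin-converting enzyme, had a score of 39.66 and 5.95 RPKM in the pull-down against an input of exactly 1 RPKM. Its peak annotation names Alg3, and the ncRNA carries the accession of Eef1akmt4. The peak ends at chr16:20612260, while the Ece2 transcripts of the mRNA list start from chr16:20629901, so the values may not belong to the Ece2 start itself.

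Membranes, endosomes and mitochondria held 5 genes, with the highest median score of the roles, 50.3. Cnnm2, a membrane protein of magnesium handling, had the most abundant ncRNA of the 50. This RNA had 57.5 RPKM in the pull-down against 15.0 RPKM in the input (3.84-fold, 3.32 to 4.45), with 2604 and 438 reads, and it covered the whole 1636-base peak (score 50.32) and the TSS. Chmp2b and Chmp6 both encode subunits of the ESCRT-III membrane scission complex. The peak of Chmp2b scored 50.41 and its ncRNA had 4.91 RPKM in the pull-down against an input of exactly 1 RPKM. At Chmp6 the score was 54.02 and the ncRNA, 1855 bases away, had 12.3 RPKM in the pull-down against 3.88 RPKM in the input (3.16-fold, 2.38 to 4.21). Tmem11, a mitochondrial membrane protein, had 2 overlapping ncRNAs, both over the whole peak (score 31.73). They had 1.90 and 1.53 RPKM in the pull-down against 0.155 and 0.128 RPKM in the input, folds of 12.26 (5.08 to 38.6) and 11.98 (4.96 to 37.8). Snx11, an endosomal sorting nexin, had 4.86-fold (2.27 to 10.5). Assigned to it were 3 further peaks of the class intron, scored 48.69, 38.67 and 32.47. They lay 40929 to 49437 bases from its TSS, and the class does not say whose intron it is.

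Signalling and polarity held 7 genes, none with a fold above 10. Sphk1, which makes sphingosine 1-phosphate, had a promoter peak score of 37.4 and 2 overlapping ncRNAs downstream of the TSS. They had 38.6 and 38.9 RPKM in the pull-down against 12.7 and 13.9 RPKM in the input, folds of 3.04 (2.53 to 3.64) and 2.79 (2.17 to 3.64). The largest fold of the role was that of Yes1, a kinase of the Src family (8.79, 5.04 to 15.5). The phospholipase gene Pld2 had 6.72-fold with an input of exactly 1 RPKM, the inositol phosphatase gene Inpp5k 4.26-fold (2.65 to 7.20), the WNT receptor gene Fzd8 3.09-fold (1.72 to 5.95) and the polarity gene Pard6a 2.82-fold (1.29 to 7.05). Rasa3, a GTPase-activating protein for Ras, had 0.339 RPKM in the pull-down against 0.062 RPKM in the input (5.47-fold, 0.805 to 255). Scores of the role had a median of 35.4, and the peak annotation at Pard6a names Acd.

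Metals and metabolism held 5 genes, with a median score of 34.5 and a median highest fold of 5.56. Cnp, the myelin nucleotide phosphodiesterase, combined the lowest score of the 50 with a high fold, at 6.19 RPKM in the pull-down against 0.155 RPKM in the input (39.95-fold, 6.92 to 1606). The metallothionein gene Mt2 had its peak centre 26 bases after the TSS (score 34.69), all of it under an ncRNA of 3.47 RPKM in the pull-down against 0.623 RPKM in the input (5.56-fold, 2.67 to 13.4). Fth1, the ferritin heavy chain gene, had 6.36-fold with an input of exactly 1 RPKM. Nagk, a kinase for N-acetylglucosamine, had 16.8 RPKM in the pull-down against 6.53 RPKM in the input (2.57-fold, 1.94 to 3.45), beside a peak score of 46.66. Fth1, H3f3b and Hmgb2 have many near copies in the mouse genome, so the assignment of their reads is uncertain.

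No role is given for 6 genes. Pisd-ps2, by its name a pseudogene of Pisd, had the third highest score (73.59), with the centre 23 bases after the TSS, and an ncRNA of 3.16 RPKM in the pull-down against an input of exactly 1 RPKM. As a copy of another gene, its values are uncertain in both assays. D11Wsu47e had 7.78-fold and Fam71f1, with a peak score of 41.52, had 4.30-fold, both with inputs of exactly 1 RPKM. Folds were 3.69 (2.30 to 6.30) at 1700037H04Rik, 2.82 (1.95 to 4.16) at BC031361 and 2.83 at 0610040F04Rik, whose ncRNA spanned 83895 bases.

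The mRNA list of the pull-down was not used to choose the genes. It held 7 of the 50 genes (14%), against 8.74% of promoter ncRNA genes, 6.97% of promoter peak genes and 5.75% of 26220 genes with a curated transcript. These 7 genes had 11 transcripts. Ece2 had 3 transcripts at 0.192 to 0.204 RPKM in the pull-down against 0.003 RPKM in the input, with folds of 64 to 68 that rounding alone can lower to 54.7. They start far downstream of the ncRNA, which carries the accession of Eef1akmt4. Dcun1d5 had 0.107 RPKM in the pull-down against 0.007 RPKM in the input (15.29-fold). For Eaf2, the transcripts had 0.014 and 0.243 RPKM in the pull-down against 0.001 and 0.047 RPKM in the input, folds of 14.0 and 5.17, and rounding can lower the 14.0 to 9.

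Fam71f1 mRNA had 0.171 RPKM in the pull-down against 0.03 RPKM in the input (5.7-fold). Of Cnnm2, 2 transcripts had 0.714 and 0.707 RPKM in the pull-down against 0.261 and 0.262 RPKM in the input (2.74-fold and 2.70-fold). Klf1 mRNA had 0.134 RPKM in the pull-down against 0.05 RPKM in the input, and its interval included 1 (2.68-fold, 0.896 to 10.9). The span of the promoter ncRNA overlapped that of the mRNA in 6 transcripts of 4 genes, among them Cnnm2, Eaf2 and Fam71f1. Shared reads there cannot be told apart. RPKM of the mRNA and ncRNA tables has different denominators, and no level is compared between them.

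Further peaks were assigned to 19 of the 50 genes (38%), 30 peaks in all, and to 33.0% of the other genes with a promoter peak. Only 3 of the 30, at Klf1, Fbxo47 and Sf3b2, lay on the gene's own promoter ncRNA. The 50 genes lay on 15 chromosomes. Chromosomes 6, 8, 11, 16 and 19 held 38 of the 50 (76%), with 5, 9, 14, 5 and 5 genes, and 67.2% of all promoter peaks. Some were neighbours, with 52.7 kb between Calr and Klf1, 169 kb between Klf1 and Dhps, 251 kb between Snx11 and Scrn2 and 455 kb between Nfkb2 and Cnnm2. A peak of another class within 1.5 kb of the TSS put 34 further promoter ncRNA genes just outside the choice. The closest of these were Immt (142 bases, score 50.52, 8.34-fold) and Gins2 (209 bases, score 47.17, 2.88-fold).

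Promoter sequence was not used to choose the genes. RefSeq windows of GRCm38.p6, from 250 bases before to 50 after the start, were found for 43 genes. Those without one include Chmp6, Fbxo47, Fzd8, Pisd-ps2 and Scrn2. A gene counted as holding a motif when any of its windows held it on either strand. Genes with several windows thus had more room for a match. The windows were not placed on the mm9 peaks, so a motif can lie at another start of the gene than the one with the peak. GC content had a median of 61.7% in the 43 genes, 60% in 261 genes with a promoter peak only, 60.7% in 1136 genes with a promoter ncRNA only and 52.8% in all 27025 genes of the table. The ratio of observed to expected CpG had medians of 0.833, 0.765, 0.752 and 0.390 in the same order. The 3 sets from the 2 assays thus share a CpG-rich promoter type, and the 43 genes had the highest median of both measures.

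CCAAT was found in 25 of the 43 genes (58.1%), against 51.0% with a peak only, 44.4% with an ncRNA only and 41.1% of all genes. The GC box GGGCGG was found in 65.1% of the 43, against 68.6%, 67.7% and 38.2% of these sets. TATAAA was found in 5 genes (11.6%), against 4.21%, 9.60% and 15.7%. TGANTCA, the AP-1 core searched with any middle base, was found in 4 genes (9.30%), against 11.1%, 5.46% and 8.97%. The match was TGAGTCA in 0610040F04Rik and Sphk1 and TGACTCA in Mt2. In Nfkb2 it was TGAATCA, in window 2 of 3 and not in the window shown above.

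The complement of the let-7d-5p seed was found at a share near the background. CTACCTC, the complement of bases 2 to 8, was found on either strand in 2 of the 43 genes (4.65%), against 3.07% with a peak only, 4.40% with an ncRNA only and 4.44% of all genes. The shorter TACCTC, which lies within it and is the complement of bases 2 to 7, was found in 6 genes (14.0%), against 9.58%, 10.5% and 11.3%. The 2 genes with the longer match were Calr and Pradc1. In both, the gene's own strand reads as the seed itself, starting 21 bases after the TSS at Calr (chr8:84846892-84846921) and 16 bases after it at Pradc1 (chr6:85451936-85451965), both on the minus strand of GRCm38.p6. The 30 bases around each match are shown with the match in capitals.
Calr site: ggttcgggtgaGAGGTAGgtgaatataaat
Pradc1 site: ggttagctcccGAGGTAGccggctagagga

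Several of the genes share their promoter region with a gene that starts in the other direction. A partner starting on the other strand within 1 kb upstream was found for 13 of 43 genes (30.2%), against 18.8% of genes with a promoter peak only, 22.8% with a promoter ncRNA only and 12.3% of all genes. The closest pairs were Orc3 with Rars2 (15 bases), Fam60a with 3010003L21Rik (31), Brd9 with Trip13 (44), Appbp2 with Appbp2os (46), Chmp2b with Gm36457 (46) and Nfkb2 with 4833438C02Rik (66). Eaf2 with Iqcb1 (141), Mafg with Gm17586 (203), Pradc1 with Cct7 (203), Calr with 1700122E12Rik (216), D11Wsu47e with Fam104a (283), Pard6a with Acd (419) and Mt2 with Gm39227 (963) lay farther apart. An ncRNA reached upstream of the TSS in 8 of the 13 genes with a partner and in 15 of the 30 without one. Whether the ncRNA is the partner's transcript cannot be told apart without its strand.

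**Figure D5:**
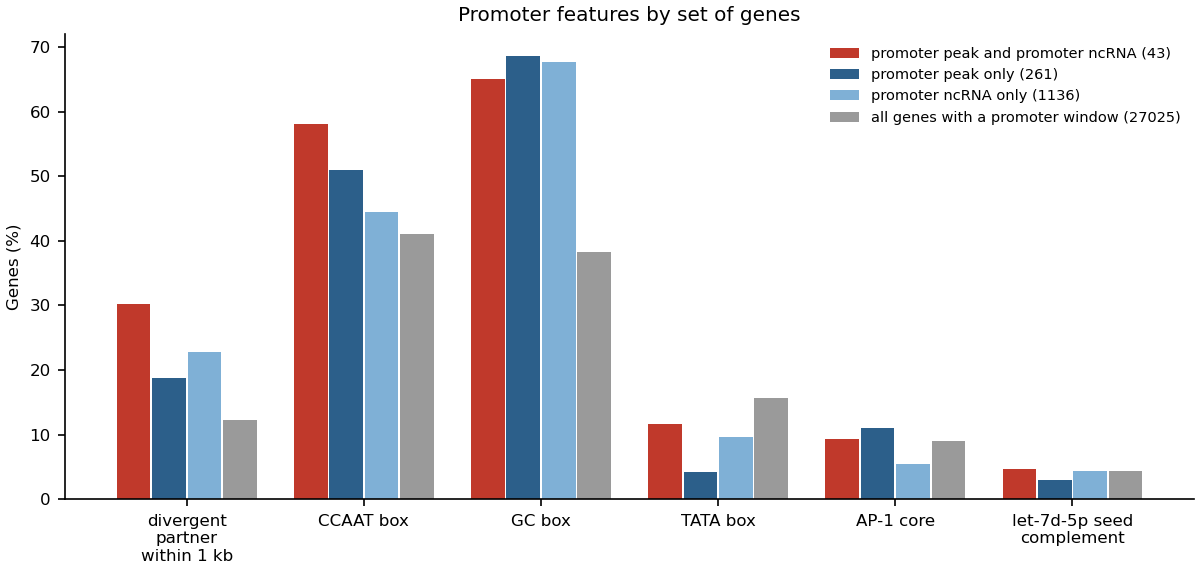
Share of genes (vertical, percent) with a divergent partner or a promoter motif on either strand, for the 43 genes with a promoter peak and a promoter ncRNA (red), genes with a promoter peak only, genes with a promoter ncRNA only (blues) and all genes with a promoter window (grey). The red bar is highest for divergent partners (30.2%) and CCAAT (58.1%), and the 4 bars for the seed complement lie between 3.07% and 4.65%.

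Pathway lists drawn around 5 of the genes each held exactly 1 of the 50, the gene around which it was drawn. That gene had both readouts by choice, so 1 gene in each count of these 5 lists was fixed in advance and no enrichment is read from them. Among all 26220 genes, 1.52% had a promoter peak and 6.17% a promoter ncRNA. Of 20 NF-kappaB genes, 2 had a promoter peak, Nfkb2 and the kinase gene Map3k14 (score 35.86, 322 bases upstream), and 2 had a promoter ncRNA, Nfkb2 and Birc3 (4.67-fold). Of 10 genes of small Maf factors and their partners, Mafg alone had either, and 5 had a peak of any class, against 12.1% of all genes. They were Mafg, which was in by choice, and Bach1, Bach2, Nfe2l3 and Nfe2l2, named as the nearest genes. The highest-scored peaks of these 4 lay 180743, 41816, -4969 and 897 bases from the TSS. Of 21 genes of ER folding and its stress response, 3 had a promoter peak (Calr, Eif2ak3 with 53.07 and Sdf2l1 with 47.07) and 4 a promoter ncRNA (Calr, Ern1 with 6.83-fold, Atf6 with 5.66-fold and Manf with 4.34-fold).

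Of 12 genes of histone H3 variants and chaperones, 2 had a promoter peak (H3f3b and Ubn2 with 40.14) and 4 a promoter ncRNA (H3f3b, Nasp with 5.11-fold, Dek with 3.66-fold and H3f3a with 3.12-fold). Of 17 genes of the SF3B complex and branch point recognition, Sf3b2 alone had a promoter peak, and Sf3b6 (5.58-fold) was the other with a promoter ncRNA. Of 10 genes of MiCEE components and Polycomb, 0 had a promoter peak and 3 a promoter ncRNA, Rbbp4 (10.06-fold), Ezh1 (7.84-fold) and Suz12 (5.61-fold). Ezh1 also had a peak 817 bases after its TSS, in an intron. A peak of any class was found for 3 of the 20 NF-kappaB genes and 5 of the 21 of ER folding. It was found for 4 of the 12 of histone H3 and chaperones, 3 of the 17 of SF3B and 2 of the 10 of MiCEE and Polycomb. None of the 14 lung epithelial, 5 mesenchymal, 4 endothelial and 3 immune markers was among the 50 genes. The lung markers Nkx2-1 and Sftpb had a promoter peak but no listed promoter ncRNA, and the tables hold enriched entries only, so they give no level by which to check the cell type.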

How the data were processed

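RNA and DNA tables of 2 samples were used, the Mirlet7d pull-down with its input and the Mirlet7d ChIRP-seq. Per the submitters' processing notes, the genome was mm9. For both samples they list Bowtie2, FastQC, SAMtools, HOMER and bedtools (version 2.15 for the pull-down), with Trimmomatic and Picard 1.119 added for the pull-down and MACS for ChIRP-seq. Which tool made which step is not given in the sources used here. Per the file headers, the pull-down tables hold RPKM, rounded by the authors to 3 decimals, and the deposited fold is the ratio of pull-down over input RPKM, listed from 2.5 upward. The peak table holds the authors' deposited score, class and distance in bases to the TSS.

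RPKM times length fell on whole reads (tolerance 0.15) in 100% of the values with enough decimals, with denominators of 15.0 M reads in the pull-down and 9.66 M in the input for ncRNAs, and 42.0 M and 23.9 M for mRNAs. No count test was run with 1 library per group. Exact conditional intervals were computed from the reads, with ncRNA reads counted as pairs and 1 read as 1 pair, and the computation was tested on simulated data. Names were matched to RefSeq (GRCm38.p6), 48 directly and 2 through older symbols, and promoter windows come from the same build. mm9 and GRCm38.p6 positions were not converted.

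The members, the lists and the rule for named genes were chosen with earlier results of these data known. Of the genes, 2 are counted but not reported here by name. Every other gene is named, with score, RPKM and fold for the 10 highest scores, folds and pull-down levels, for mRNA entries, for peak centres within 50 bases of the TSS and for Nfkb2, Mafg, Calr, H3f3b and Sf3b2. The other libraries were not analysed here. Python 3.11.15, pandas 2.3.3, numpy 2.4.6, scipy 1.17.1 and matplotlib 3.10.9 were used.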

Additional observations from a re-analysis of the deposited data

How the results depend on the processing

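Of 20 alternatives, 14 left a count within 1.5 times, or a median within its 95% order-statistic interval. The number of genes fell to 21 with peak scores of at least 40 and to 20 with ncRNA folds of at least 5. Without inputs of exactly 1 RPKM it was 38, with peaks of any class within 1 kb of the TSS 68, and matched by accession, an alternative chosen after seeing the data, 48, of which 44 are among the 50. Requiring 50% of the peak left 18 genes whose ncRNA touches it, and allowing a gap of 1 kb gave 43. A pseudocount of 1 RPKM lowered the median fold to 2.82, while the other settings gave 3.96 to 4.28. With mRNA folds of at least 5, 4 of the genes remained on the mRNA list. The complement of seed bases 2 to 7 was found in 6 genes. The lower counts follow from the stricter limits themselves, and the pseudocount lowers every fold with a small input by construction. Within 500 bases, 12 genes had a divergent partner. No paired analysis was possible because each group has 1 library and no result comes from a test. Input reads limit the highest folds, since Klf1, Calr, Cnp and Fbxo47 rest on 1 or 2 of them.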
